A study of Ambystoma mexicanum with 8 samples.

Results

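The cells described here were chosen by their haemoglobin content, their number of detected gene models and 2 limits on other transcripts, and 100 of 35013 axolotl limb cells met all of them. A cell had to have 50% or more of its unique molecular identifiers (UMIs, each standing for 1 captured transcript) on gene models with the symbols HBA1, HBD, HBZ, HBE1, HBG1 or HBG2. It also needed 2000 or more detected gene models, under 2 UMIs on MKI67 and TOP2A together, and under 3 UMIs on EPCAM, CDH1 and DSP together. The haemoglobin limit alone left 709 cells, the gene model limit 118, the proliferation limit 103 and the epithelial limit 100. The values that chose the cells are therefore their haemoglobin share, their gene model count and these 5 transcripts, and their values are given as a description. The rule used no sample label, so haemoglobin models remain in the test across all genes between contra and intact samples, where the rule bounds their summed level.

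The haemoglobin limit decided more than its wording shows. The 6 symbols cover 17 gene models, and 2 further abundant haemoglobin models, named HB-AM and HB-AM-GLNC1 in the files, are outside the symbols although they held 7.41% and 10.5% of all UMIs. In the selected cells the 6 symbols took a median of 50.9% of UMIs (range 50.05% to 57.5%), the HB-AM pair took 30.7%, and all 19 haemoglobin models took 81.8%. Only 1 of 35013 cells reached 60% on the 6 symbols, and 53 of the 100 selected cells lay between 50% and 51%. Counting the HB-AM pair as well would have admitted 3235 cells instead of 100, and the 3135 added cells are used below for comparison. The 5 selected cells with the lowest 6-symbol share had 50.045% to 50.086%, and the 5 cells just under the limit had 49.940% to 49.993%. The 5 selected cells with fewest detected gene models had 2008 to 2016, and the 5 haemoglobin-rich cells with most below the limit had 1973 to 1986.

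The cells came from dissociated limbs of the axolotl (Ambystoma mexicanum), a salamander that regrows its limbs, and all animals were wild-type. They were sorted alive at the DNA content of unreplicated nuclei (2C) and profiled with 10x 3′ chemistry. The 4 contra samples (numbers 1, 2, 4 and 5) are limbs that the series text calls systemically activated, collected 14 days after an amputation. The 3 intact samples (numbers 1, 2 and 4) are homeostatic limbs, and an eighth labelled sample, intact 5, was not analysed here. The preparation protocol calls 2C cells non-dividing, whereas the series text calls them dividing. Genotype, tissue and sort were the same in both groups. Nothing in the labels says whether samples came from separate animals, so p-values measure the spread between these samples, which may be partly technical. Per sample, 4367 to 5775 cells held 98058408 to 120959664 UMIs in contra samples, and 4446 to 5102 cells held 97977234 to 133670940 UMIs in intact samples. Of the 100 cells' barcodes, 0 occurred in another library.

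Red blood cells of salamanders keep their nucleus in the circulation, unlike those of mammals, so a mature cell still has a genome to transcribe. Maturing erythroid cells fill with haemoglobin, which pairs alpha-like and beta-like globin chains around haem, while they take up iron, build a spectrin-based membrane skeleton, and reduce other transcripts. In mammals HBZ is an embryonic alpha-like chain, HBG1 and HBG2 are foetal beta-like chains and HBD is a minor adult beta-like chain. The symbols on the axolotl models come from the files, and which chain each model encodes in the axolotl was not examined. The models may be near-identical copies, so that reads could be split among them.

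Selected cells came mainly from intact 1 and intact 2, and the groups overlapped. Contra samples 1, 2, 4 and 5 gave 5, 4, 6 and 0 selected cells, against 24, 57 and 4 in intact samples 1, 2 and 4. These were 0.0866%, 0.0916%, 0.126% and 0% of all contra cells, against 0.470%, 1.16% and 0.0900% of all intact cells. Intact 4 lay within the contra range, and the count of 0 in contra 5 allows a share of up to 0.0530%. Averaged over samples, the share came to 0.0760% ± 0.0536 in the contra group (SD, n = 4), against 0.574% ± 0.544 in the intact group (SD, n = 3). The difference of -0.498 percentage points had a two-sided exact permutation p of 0.0857, which was 0.30 after Benjamini-Hochberg adjustment over 7 measures. The smallest p that the 35 splits of these samples allow is 0.0286. Leaving out intact 2, which held 57 of the 100 cells, reduced the difference to -0.204. With all 19 haemoglobin models counted, the cells passing were 11.7%, 8.015%, 5.21% and 2.97% of all cells in contra 1, 2, 4 and 5. In intact 1, 2 and 4 they were 10.1%, 21.8% and 4.68%, so contra 1 lay above intact 1. That difference was -5.20 points (exact permutation p 0.371).

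**Figure D1:**
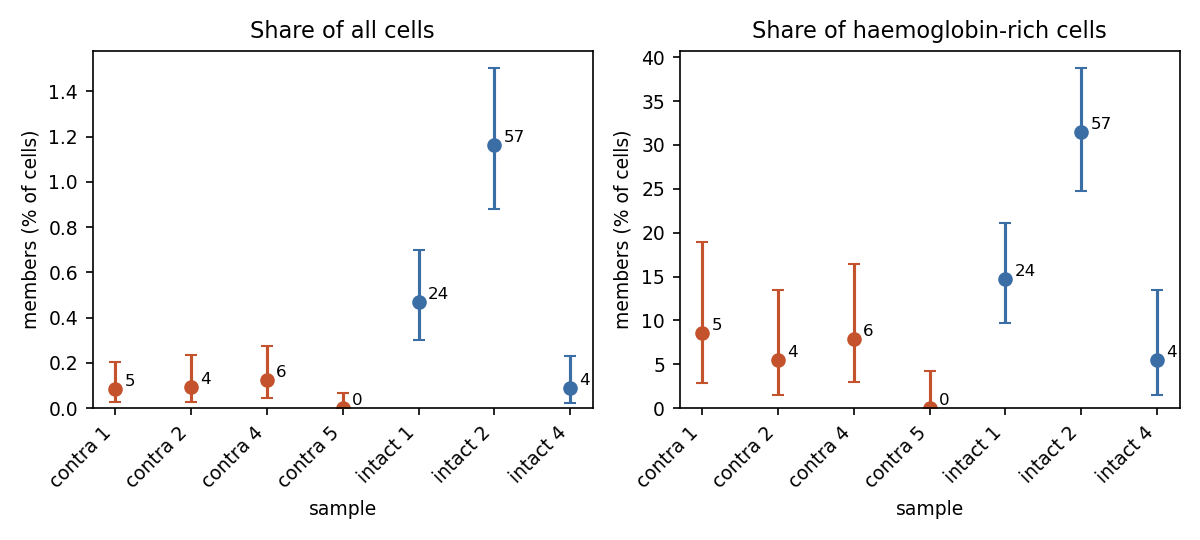
Selected cells as a percentage of all cells (left panel) and of haemoglobin-rich cells (right panel) in each sample, contra in orange and intact in blue, with exact 95% binomial intervals for counting error and the number of selected cells beside each point. Intact 1 and intact 2 stand above the contra samples, while intact 4 lies among them.

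As a share of the 709 haemoglobin-rich cells, the selected cells made up 8.62%, 5.48%, 7.89% and 0% in contra samples and 14.7%, 31.5% and 5.48% in intact samples. The mean of the contra group was 5.50% ± 3.90 (SD, n = 4) and that of the intact group 17.2% ± 13.2 (SD, n = 3), a difference of -11.7 points with an exact permutation p of 0.143 (adjusted p 0.333). That difference was -4.60 without intact 2 and -17.6 without intact 4. Depth differed alongside, since the haemoglobin-rich cells with under 2000 gene models had a median of 19067 UMIs in contra 5, against 25984 to 38731 in the other samples. When each haemoglobin-rich cell was thinned to 5000 UMIs and the limit scaled to 507 gene models, 105 cells passed, 37 of them among the selected 100. On that scale contra 5 gave 24 cells, 28.2% of its haemoglobin-rich cells and the highest share of any sample, against 4, 9 and 4 cells in contra 1, 2 and 4 and 5, 48 and 11 in intact 1, 2 and 4. The difference in share was then -1.70 points (exact permutation p 0.886). At full depth with a limit of 1500 gene models, 10.6% of the haemoglobin-rich cells of contra 5 passed.

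The erythroid identity in the label was borne out by its markers. ALAS2, the erythroid enzyme that starts haem synthesis, had at least 1 UMI in 100% of the selected cells, against 19.5% of the 20843 cells with under 5% haemoglobin UMIs. TFR2, a transferrin receptor, had a UMI in 100% against 34.5%, and SLC4A1, the band 3 anion exchanger of the red cell membrane, in 99% against 5.46%. KLF1, an erythroid transcription factor, was found in 36% against 0.235%. Median depth was 46449 UMIs in the selected cells and 14972 UMIs in those low-haemoglobin cells. HBD had a UMI in 100% of the selected cells and in 99.97% of the low-haemoglobin cells, so its presence alone marks no cell. TAL1 and NFE2, both erythroid transcription factors, were found in 75% and 71% of the selected cells, against 0.576% and 0.854% of low-haemoglobin cells.

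The levels of these markers overlapped between the groups. As CPM (UMIs of a gene scaled to library size in counts-per-million units, over the summed selected cells), ALAS2 stood at 1781, 2420 and 1951 CPM in contra 1, 2 and 4, against 1940, 1811 and 2035 CPM in intact 1, 2 and 4. SLC4A1 had 214.6, 284 and 326 CPM in contra samples, against 173, 274 and 269 CPM in intact samples. TFR2, over its 2 gene models, had 455, 380.2 and 424 CPM in contra samples, against 312, 557 and 567 CPM in intact samples. No marker separated the groups, and intact 1 was lowest for both SLC4A1 and TFR2. KLF1 rested on 50 UMIs in all, with 4.29, 6.03 and 8.57 CPM in contra samples and 7.03, 13.5 and 14.2 CPM in intact samples.

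Markers of other cell types were mostly at or near 0. Of the 100 cells, 0 had 3 or more UMIs on the T cell, B cell, neutrophil, mast cell, fibroblast, endothelial or muscle lists, and 1 had them on the macrophage list. LAPTM5, a lysosomal protein of leukocytes, had 0 UMIs in the selected cells and was found in 37.8% of low-haemoglobin cells. The pan-leukocyte list reached 3 UMIs in 34% of the selected cells, led by the tetraspanin CD53, found in 85%. The thrombocyte list did so in 24%, led by GP1BB, a platelet glycoprotein in mammals, which was found in 57% of the selected cells, 49.7% of haemoglobin-rich cells with fewer gene models and 0.542% of low-haemoglobin cells. Of the 8 thrombocyte genes with a gene model, 4 had a UMI, among them GP1BA with 24 UMIs and GP9 with 21. ITGA2B, F13A1, GP5 and VWF were at 0. Epidermal markers, chiefly the keratins KRT12 and KRT5, reached 3 UMIs in 33% of the selected cells and in 66.2% of low-haemoglobin cells. Their summed level was 30.0, 326 and 154 CPM in contra samples and 28.9, 49.8 and 135 CPM in intact samples, and their part in any result below was not tested. On all leukocyte and thrombocyte lists combined, 79 of the 100 cells had 3 or more UMIs. The doublet score was at most 0.139 in the selected cells, and 0 reached 0.25.

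The selected cells were large libraries, with a median of 46449 UMIs (range 26123 to 76588) and 2242 detected gene models (range 2008 to 3501). Only 7962 of those UMIs, as a median per cell, lay outside the 19 haemoglobin models. Across the 100 cells the number of gene models followed the non-haemoglobin UMIs (Spearman rho 0.757) more closely than all UMIs (rho 0.529), as a description over cells that share libraries and depth. The mitochondrial share was a median of 1.16% per cell, and summed per sample it was 1.09%, 1.15% and 1.61% in contra and 0.957%, 1.19% and 1.84% in intact samples. The median number of gene models per cell was 2240, 2261 and 2207 in contra, against 2275, 2245 and 2129 in intact samples. Median UMIs were 52530, 40378 and 37393 in contra, against 54020, 44519 and 35155 in intact samples. The groups overlapped in all 3 measures. For the mitochondrial share the two-sided exact permutation p was 0.80 and for median UMIs 0.90, where 20 splits allow no p below 0.10.

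"Transcript-diverse" restates the gene model limit, which itself separates the selected cells from the other haemoglobin-rich cells, so these values are a description. When every cell was thinned to 20000 UMIs, the selected cells kept a median of 1314 gene models (100 of 100 cells deep enough). The haemoglobin-rich cells with fewer gene models kept 1066 (507 of 576 deep enough). The 3135 cells that pass only with the HB-AM pair kept 1621 (3063 deep enough), so at equal total UMIs the selected cells showed fewer gene models than these, beside a larger haemoglobin share (medians of 81.8% and 77.1% on 19 models). Unthinned medians were 2242, 1482 and 2471 gene models for the same cells. With each cell thinned to 3000 non-haemoglobin UMIs the medians were 1154 gene models in the selected cells, 1062 in the haemoglobin-rich cells with fewer gene models (548 deep enough) and 1207 in the 3135 cells. The 15 haemoglobin-rich cells that the proliferation limit removed had a median of 1161.

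The haemoglobin models divided the selected cells among themselves. Summed per sample, HBD took 21.7%, 23.9% and 23.3% of UMIs in contra 1, 2 and 4, against 27.6%, 20.7% and 19.7% in intact 1, 2 and 4. HBG1 took 16.0%, 14.1% and 15.1% in contra samples, against 17.3%, 14.4% and 13.6% in intact samples. These 2 abundant models ran in a similar range in both groups, and intact 1 was highest for each. HBZ took 6.61%, 7.07% and 7.22% in contra samples, against 4.18%, 7.47% and 9.76% in intact samples. HBG2 took 7.03%, 5.71% and 5.29% in contra samples, against 2.15%, 8.64% and 8.48% in intact samples. Contra samples lay close together in HBZ and HBG2, while the intact samples spread on both sides of them. HBE1 and HBA1 were minor, with at most 0.0133% and 0.00355% of UMIs in any sample.

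**Figure D2:**
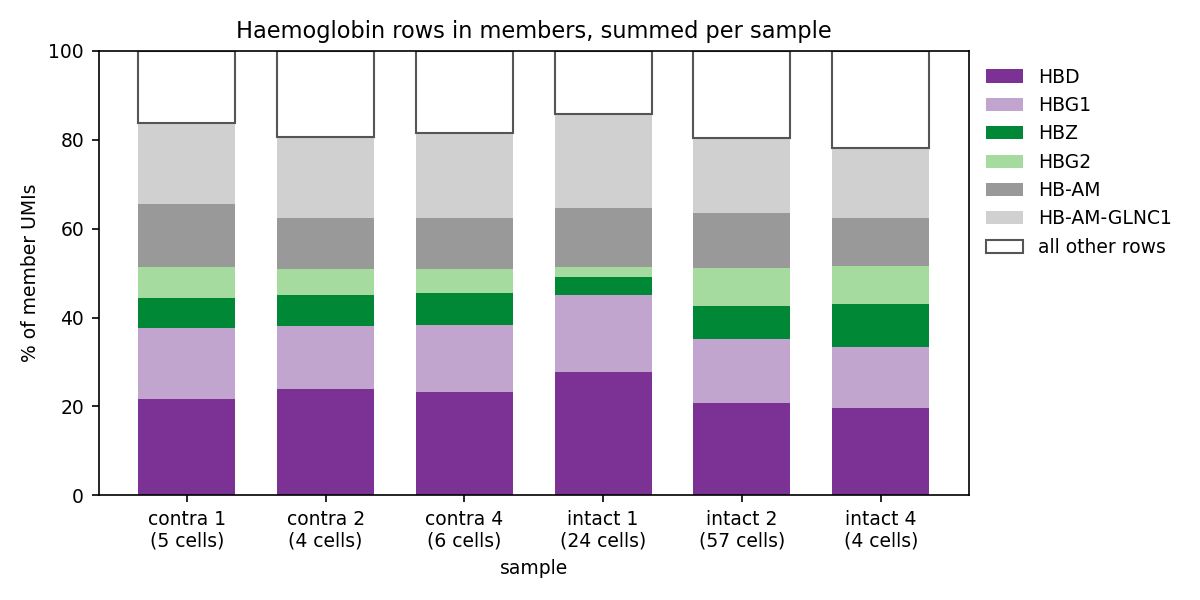
Percentage of all UMIs of the selected cells on each of 6 haemoglobin symbols or names, summed per sample and stacked, with all other rows in white; the number of cells is under each sample. Intact 1 has the thinnest HBG2 band, 2.15% of UMIs, and the thickest HBD band, 27.6%.

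Cell by cell, HBZ and HBG2 together ranged from 1.84% to 36.1% of UMIs, with a median of 13.3%. The median was 12.8%, 11.8% and 12.5% in contra 1, 2 and 4, against 6.96%, 15.2% and 19.96% in intact 1, 2 and 4. The share of HBG2 ran opposite to that of HBD (Spearman rho -0.878 across 100 cells), and HBZ and HBG2 together ran opposite to the HB-AM pair (rho -0.735). Shares of 1 total constrain each other. The rule also bounds the sum of its 6 symbols, HBD and HBG2 among them, and 53 of the 100 cells lay at 50% to 51%. These correlations are therefore a description, over cells that share libraries. Every cell with an HBZ and HBG2 share below the intact 2 minimum of 8.328% came from intact 1. HBZ and HBG2 shares increased together (rho 0.434), and their sum was almost unrelated to the number of gene models (rho 0.0738). In the 576 haemoglobin-rich cells with fewer gene models the median was 10.9%, and in the 3135 cells it was 4.93%. The rule counts HBZ and HBG2 but not HB-AM, so it admits cells rich in the first pair, and these 3 medians are given as a description.

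**Figure D3:**
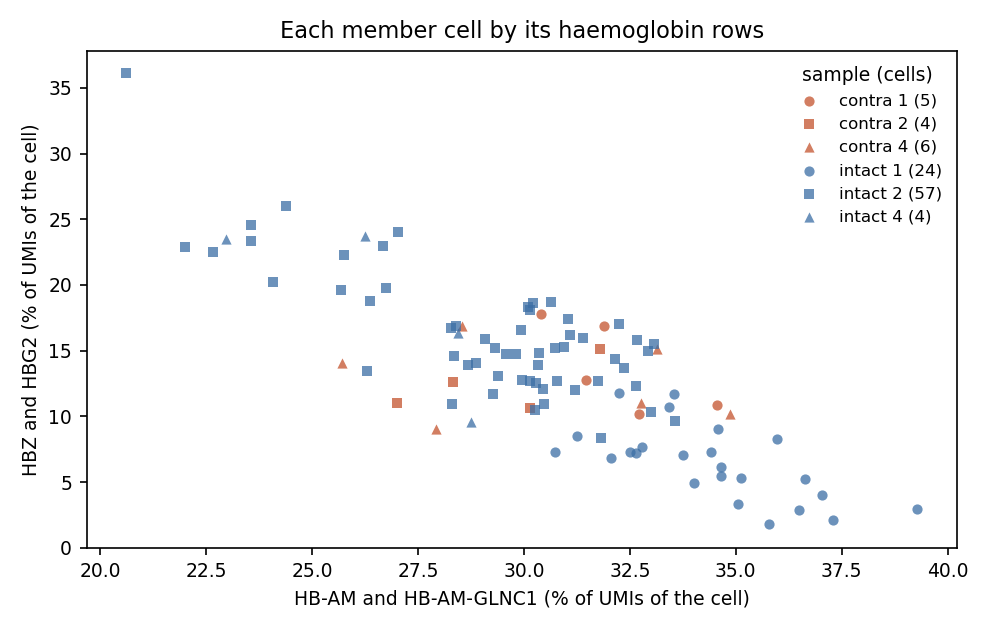
HBZ and HBG2 together (vertical axis, percent of the UMIs of a cell) against HB-AM and HB-AM-GLNC1 together (horizontal axis, percent of the UMIs of a cell) for the 100 selected cells, coloured orange for contra and blue for intact and shaped by replicate number. Cells run from few HB-AM and many HBZ and HBG2 UMIs to the reverse, and intact 1 fills the lower right end.

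A minor HBG2 model varied far more between samples than the main HBG2 model. AMEX60DD201028124.7 was detected in 79 of the 100 cells and had 519, 18.1 and 746 CPM in contra 1, 2 and 4, against 46.9, 8372 and 8567 CPM in intact 1, 2 and 4. Intact 2 and intact 4 stood more than 10 times above every contra sample, whereas intact 1 lay below contra 1 and contra 4. The main HBG2 model, AMEX60DD201028125.2, had 69680, 57060 and 52100 CPM in contra samples, against 21500, 77950 and 76070 CPM in intact samples. Another HBG2 model, AMEX60DDU001012366.1, was low, with 73.0, 0 and 4.29 CPM in contra samples, against 0.78, 59.0 and 156 CPM in intact samples, and contra 1 lay above intact 2. HBA1 had 0, 0 and 0 UMIs in contra samples and 2, 92 and 1 UMIs in intact samples, so it came almost wholly from intact 2.

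"Non-cycling" in the label rests on the 2 genes that the rule used, and transcripts of other cell cycle genes were present. Of the 26 S-phase genes listed (DNA replication and nucleotide supply), 24 have a gene model here and 23 had a UMI in the selected cells. A cell had a median of 4 S-phase UMIs (range 0 to 58), and 45 of 100 cells had 5 or more, with 29 cells at 3 to 6 UMIs around that limit. The 20843 low-haemoglobin cells had the same median of 4 and 44.2% with 5 or more, from a median of 14880 non-haemoglobin UMIs per cell, against 7962 in the selected cells. MCM3, a subunit of the replicative helicase, was found in 43% of the cells, MCM2 in 38%, and RRM1, a subunit of ribonucleotide reductase, in 47%. The sliding clamp PCNA, named PCNA.L in the files and outside the list, was found in 44 cells. Of the 25 G2/M genes with a gene model, 22 had a UMI, with a median of 12.5 UMIs per cell. The list was led by the chromatin protein HMGB2 (1015 UMIs, 100 cells) and the spindle protein TACC3 (181 UMIs, 74 cells). Low-haemoglobin cells had a higher G2/M median, of 17 UMIs. In the selected cells CCNB1, CCNB2 and BIRC5, which act in mitosis, had 0 UMIs. Of these cells, 16 had the 1 UMI on MKI67 or TOP2A that the rule permits. The cells are therefore called by their rule here, and not non-cycling.

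Scaled to the UMIs outside the 19 haemoglobin models (non-haemoglobin CPM), the S-phase list summed to 1204 in the selected cells. It summed to 625 in low-haemoglobin cells, 443 in haemoglobin-rich cells with fewer gene models, 1058 in the 3135 cells and 3148 in the 15 haemoglobin-rich cells with 2 or more MKI67 and TOP2A UMIs. The G2/M list summed to 1705 in the selected cells and 1586 in low-haemoglobin cells. In the other 3 kinds, in the same order, it summed to 1264, 2212 and 5043. When each cell was thinned to 3000 non-haemoglobin UMIs, 27% of the selected cells kept 5 or more S-phase UMIs, against 7.12% of haemoglobin-rich cells with fewer gene models, 23.1% of the 3135 cells and 73.3% of the 15 cells. Unthinned, the shares of the same kinds were 45%, 11.6%, 46.3% and 100%. The low-haemoglobin cells were not thinned on this scale.

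The S-phase signal was not shared by all the cells. In contra 1, 2 and 4, 2 of 5, 3 of 4 and 6 of 6 cells had 5 or more S-phase UMIs, against 17 of 24, 16 of 57 and 1 of 4 cells in intact 1, 2 and 4. The summed list stood at 789, 2681 and 3303 non-haemoglobin CPM in contra samples, against 1725, 829 and 390 non-haemoglobin CPM in intact samples. Contra 2 and contra 4 were the highest and intact 4 the lowest, and contra 1 lay within the intact range. In contra 4 each of the 6 cells had 18 or more S-phase UMIs.

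**Figure D4:**
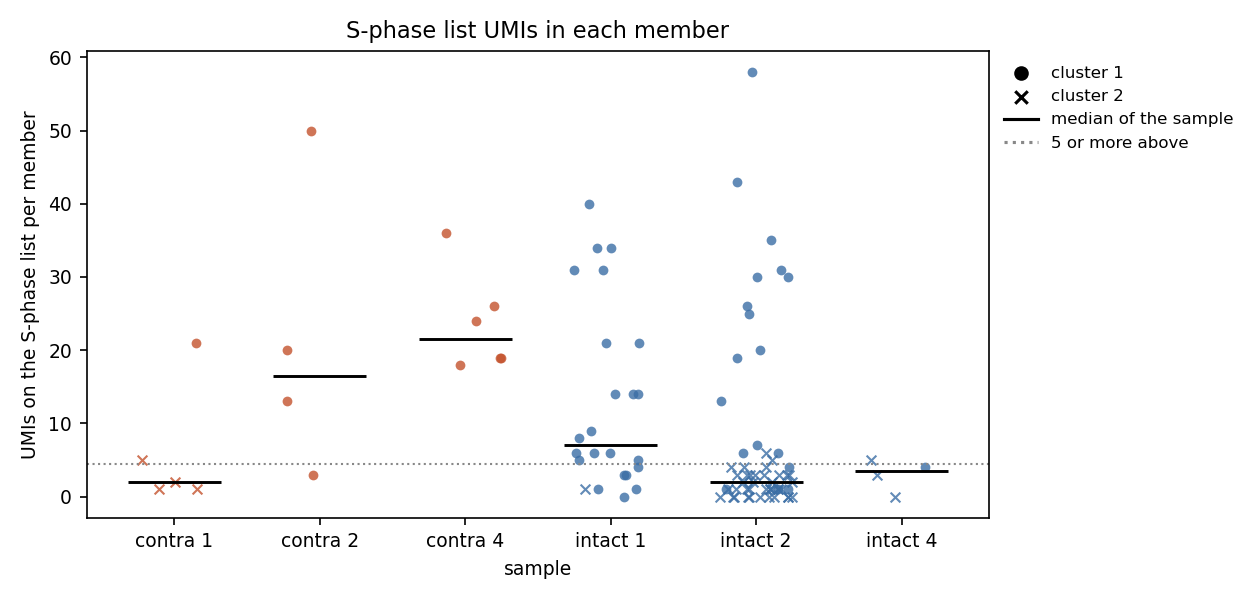
UMIs on the S-phase list in each selected cell by sample, contra in orange and intact in blue; filled circles and crosses are the 2 clusters of selected cells, the black bar is the median of the sample and cells above the dotted line have 5 or more. Contra 4 cells all lie at 18 or higher, while most intact 2 cells lie below 5.

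Clustering the selected cells without haemoglobin models gave 2 clusters, of 53 and 47 cells. The genes that define them are a description, since the clusters were made from them. Cluster 1 was led by SRSF2 (a splicing factor), PCLAF (a partner of PCNA), PCNA.L, MCM3, MCM2 and SELENOH, with 2054 S-phase non-haemoglobin CPM, against 218 in cluster 2. Cluster 2 was led by LOC115659439, 1 FTH1 model (ferritin heavy chain), GNG3 (a G protein subunit), MTHFD2 (a mitochondrial folate enzyme) and PDK4 (a pyruvate dehydrogenase kinase). MTHFD2 stood at 837 non-haemoglobin CPM in cluster 1 and 2511 in cluster 2, and TUBB3, a beta-tubulin, at 1069 and 2369. ALAS2 stood at 12080 in cluster 1 and 8618 in cluster 2, and TSPO, a mitochondrial outer membrane protein, at 6141 and 4175. HBG2 took a median of 4.79% of UMIs in cluster 1 and 8.23% in cluster 2. Of the 47 cells of cluster 2, 39 came from intact 2. Within intact 2 alone, the S-phase list stood at 1971 non-haemoglobin CPM in its 18 cells of cluster 1. It stood at 201 in its 39 cells of cluster 2. The other values by cluster were pooled over libraries. Cluster 1 had cells from all 6 samples but was also uneven. It held 23 cells of intact 1, 18 of intact 2, and 4 and 6 of contra 2 and 4. Contra 1 and intact 4 gave it 1 cell each. Cluster 2 held 1 cell of intact 1 and 0 of contra 2 and contra 4. The part of library in the contrasts above was not tested.

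Genes of haem synthesis were found in most selected cells, in libraries deeper than those of the low-haemoglobin cells. FECH, the enzyme that inserts iron into the ring, had a UMI in 100% of the selected cells and 10.5% of low-haemoglobin cells, and SLC25A37 (mitoferrin, which brings iron into mitochondria) in 99% and 17.3%. UROD, the fifth enzyme of the pathway, had a UMI in 98% and 59.5%, CPOX, which acts after it, in 90% and 23.7%, and ALAD, the second enzyme, in 71% and 11.5%. ALAD had 21.5, 66.4 and 77.2 CPM in contra 1, 2 and 4, against 47.7, 28.2 and 21.3 CPM in intact samples, and the groups overlapped through contra 1. SLC25A38, a mitochondrial carrier, had 3 UMIs over all 100 cells. Of 9 haem synthesis genes with at least 50 non-haemoglobin CPM, 3 were higher in the selected cells than in the haemoglobin-rich cells with fewer gene models in every one of 6 samples and 0 were lower, beside 164 higher and 80 lower of all 1985 symbols at that level.

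Of the transferrin receptors, TFR2 was detected and TFRC was not. TFRC, the main transferrin receptor of mammalian erythroid cells, had 0 UMIs in the selected cells and a UMI in 1.56% of low-haemoglobin cells. Ferritin heavy chain FTH1, over 7 gene models, had the highest UMI count of the symbols outside haemoglobin, with 2833, 3403 and 3198 CPM in contra, against 2983, 3489 and 3064 CPM in intact samples. HMOX1, which breaks haem down, had 7 UMIs in 2 cells.

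Of 18 membrane and skeleton genes listed, 15 have a gene model here and 14 had a UMI in the selected cells. Some were found in nearly all cells and others were low. ADD2, ADD3 and GYPC had 9, 21 and 30 UMIs over all 100 cells. RHAG and EPB41 (a membrane protein and protein 4.1) were found in 100% of the selected cells, ANK1 (ankyrin) in 99% and SPTB (beta-spectrin) in 98%. RHAG had 107, 157 and 154 CPM in contra samples, against 119.6, 183 and 199 CPM in intact samples. ANK1 had 116, 84.5 and 154 CPM in contra samples, against 104, 152 and 177 CPM in intact samples. Both sets overlapped. Of the 7 list members with at least 50 non-haemoglobin CPM, 0 differed in 1 direction in all 6 samples from the haemoglobin-rich cells with fewer gene models.

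Genes of early progenitors were low. Of the 8 listed, KIT, CD34 and GATA2 had 0 UMIs, MYB had 1, RUNX1 9, MYC 13 and FLI1 15, and the erythropoietin receptor EPOR had 40 of the list's UMIs, in 30% of the cells (0.36% of low-haemoglobin cells). The 8-gene early list summed to 8.58, 30.2 and 21.4 CPM in contra samples, against 13.3, 18.5 and 7.09 CPM in intact samples. Among adrenergic receptors, ADRB3 was found in 61% of the selected cells and in 0.389% of low-haemoglobin cells. ADRB3 had 38.6, 24.1 and 25.7 CPM in contra samples, against 11.7, 23.9 and 14.2 CPM in intact samples, which rests on 9, 4 and 6 UMIs in contra and 15, 62 and 2 UMIs in intact samples. The contra values all lay above the intact ones, but intact 2 came within 1 CPM of contra 2. The gene was too low to enter the test across genes in the selected cells. In the 3235 cells chosen with all 19 haemoglobin models, ADRB3 had a log2 fold change of -0.04 and the groups overlapped. Contra 1, 2, 4 and 5 had 29.5, 27.0, 28.5 and 27.1 CPM there. Intact 1, 2 and 4 had 15.4, 34.9 and 28.5 CPM. ADRB1 was found in 15% of the selected cells and in 17.4% of low-haemoglobin cells.

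Set beside the 576 haemoglobin-rich cells with fewer gene models, the selected cells had the DNA replication genes ATAD5, MCM3 and CHAF1A among their highest ratios and 26 of 78 ribosomal protein symbols lower in every sample. This is a description of cells that the gene model limit itself separated. Values are log2 ratios of non-haemoglobin CPM (pseudocount 10), as the median over 6 samples. Over 1985 symbols the median ratio was 0.14, with 164 symbols higher and 80 lower in every sample. The highest included ATAD5 at 1.85 (unloads PCNA), MCM3 at 1.74, SLBP at 1.64 (binds histone mRNA) and CHAF1A at 1.62 (assembles chromatin behind the fork). SRSF2 stood at 1.42, SRSF4 at 1.08 and SRSF1 at 1.01, all splicing factors, and the RNA-binding protein KHDRBS1 at 1.21. The other 7 of the 15 highest were RMI2, ANP32E, IPO13, RANBP1, CLINT1, RPRD1B and TGM6, at 1.04 to 1.33. Of 9 S-phase genes with at least 50 non-haemoglobin CPM, 2 were higher in every sample, with a list median of 1.74.

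The lowest symbols were led by LOC115659439 at -2.65, POLR2I at -1.73 (an RNA polymerase II subunit), CYP1A1 at -1.53 (a xenobiotic-metabolising enzyme) and ACTC1 at -1.37 (an actin of muscle). Pooled over samples LOC115659439 was nearly level, at 572 non-haemoglobin CPM in the selected cells and 605 in the others, and 460 of its 477 UMIs in the selected cells came from intact 2. The remaining 6 of the 10 lowest were PIGP, VEGFD, BCAS2, MFSD5, MKNK2 and GDA, at -1.16 to -0.89. Of 78 ribosomal protein symbols, 26 were lower in every sample and 0 higher, with a median of -0.18. For example RPL10 stood at -0.20 and at 6926 non-haemoglobin CPM in the selected cells, against 7621 in the others. Several low genes depend on few UMIs, such as ACTC1 with 13 UMIs over all selected cells. Thinning each cell to 3000 UMIs left SLBP with 1 UMI and turned its ratio to -2.18, and likewise turned those of IPO13, TGM6 and RMI2. ATAD5 then fell to 0 (4 UMIs in the selected cells, 2 of 6 samples higher) and CHAF1A to 0.54 (3 of 6 higher). MCM3 stood at 1.69 from 9 UMIs, with 4 of 6 samples higher.

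Set beside the 3135 cells that pass only with the HB-AM pair, fewer symbols were higher than lower in every sample. Over 2099 symbols the median ratio was -0.07, with 40 symbols higher and 114 lower in every sample. VIM, an intermediate filament protein, stood at -2.34, and had 56.4 non-haemoglobin CPM in the selected cells, against 224 in the 3135. The histones H2AJ and H2BC12 stood at -1.69 and -1.57, and the innate receptor TLR2 at -2.19. The highest ratio was 0.75 for CLINT1, followed by ARPP19 at 0.67 and TMEM183A at 0.65. LOC115659439 was also lower here, at -1.62, although 459 of its 476 UMIs on the main model in the selected cells came from intact 2. The 3135 cells had 159 with a doublet score of 0.25 or more, against 0 of the selected cells, and that difference's part in these ratios was not tested.

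No gene passed the test between contra and intact within the selected cells. The question was whether these erythroid cells differ between limbs of amputated animals and homeostatic limbs. UMIs were summed per sample over 5, 4 and 6 contra cells (233002, 165721 and 233248 UMIs) and 24, 57 and 4 intact cells (1279654, 2591783 and 141010 UMIs), and contra 5 was left out because it had 0 cells. edgeR's quasi-likelihood test called 0 of 453 gene models (0%) at a Benjamini-Hochberg adjusted p of 0.05, with 19 at an unadjusted p under 0.05 (4.19%), 14 higher and 5 lower in contra. DESeq2, run with no filter on low counts, called 0 of 20642, with 488 at an unadjusted p under 0.05, all lower in contra. Its median log2 fold change over all gene models was itself -0.50. With every low-count model kept, 4 models passed in edgeR. Leaving out the cells with 3 or more leukocyte or thrombocyte UMIs gave 9, but it left 4 cells of 1 contra sample (contra 4) against 5, 9 and 3 cells of intact 1, 2 and 4, and that lone sample is assumed to vary like the intact ones. In 18 of 453 gene models (3.97%) the groups did not overlap.

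TMEM14C, a mitochondrial protein that serves haem synthesis in mouse erythroid cells, had the smallest p. Its model AMEX60DD301035690.1 had 185, 296 and 300 CPM in contra 1, 2 and 4, against 72.7, 157 and 121 CPM in intact 1, 2 and 4. Every contra sample lay above every intact sample, from 43, 49 and 70 UMIs in contra and 93, 408 and 17 UMIs in intact samples. The log2 fold change was 1.19 ± 0.247 (SE), with an edgeR adjusted p of 0.57. In the 3235 cells chosen with all 19 haemoglobin models the same model had a log2 fold change of -0.06, and with DESeq2 in the selected cells -0.15, where the median over all gene models was -0.50. It was among the 9 models that passed with contra 4 as the only contra sample (log2 fold change 1.49, edgeR adjusted p 0.0148). Summed over both TMEM14C models the groups overlapped, with 292, 434 and 476 CPM in contra samples, against 341, 282 and 262 CPM in intact samples.

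The next smallest p-values among models higher in contra, none of them called, belonged to CIRBP, LOC100092458, SAFB and RBMX. The CIRBP model AMEX60DD201000605.1, of a cold-inducible RNA-binding protein, had 73.0, 78.5 and 51.5 CPM in contra samples. In intact samples it had 14.9, 42.4 and 21.3 CPM. Its log2 fold change was 1.31 ± 0.399 (SE) with an edgeR adjusted p of 0.95. Summed over 3 CIRBP models the groups overlapped, at 1184.5, 1032 and 742 CPM in contra and 592, 1447 and 1248 CPM in intact samples. SAFB, a nuclear scaffold protein, had 42.9, 72.4 and 55.7 CPM in contra samples, against 22.7, 37.8 and 28.4 CPM in intact samples. RBMX, a splicing-related protein, had 73.0, 133 and 98.6 CPM in contra samples, against 51.6, 54.8 and 63.8 CPM in intact samples. Neither pair of groups overlapped, with log2 fold changes of 0.89 for SAFB and 0.82 for RBMX, and the adjusted p was 0.95 for both with edgeR. LOC100092458 followed at 0.54 with overlapping groups. With DESeq2 all 4 were below 0, at -0.08 for CIRBP, -0.42 for SAFB, -0.41 for RBMX and -0.80 for LOC100092458. Of these, LOC100092458 alone lay below the DESeq2 median of -0.50. In the 3235 cells chosen with all 19 haemoglobin models, the groups overlapped for each of these models. The edgeR log2 fold changes there were 0.12 for CIRBP, 0.36 for SAFB, -0.004 for RBMX and -0.15 for LOC100092458.

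Lowest in contra by p were AP1G1, CDK13, VIPR1, RPL9 and the variable HBG2 model, none called. VIPR1, a receptor for vasoactive intestinal peptide, had 554, 477 and 660.2 CPM in contra samples, against 489, 1043 and 1106 CPM in intact samples. The groups overlapped through intact 1, and the log2 fold change was -0.51 ± 0.216 (SE). AP1G1, a clathrin adaptor subunit, had 34.3, 54.3 and 38.6 CPM in contra samples, against 68.0, 69.8 and 78.0 CPM in intact samples. Its log2 fold change was -0.79. In the 3235 cells chosen with all 19 haemoglobin models, AP1G1 had a log2 fold change of -0.03 and the groups overlapped. The HBG2 model AMEX60DD201028124.7 had a log2 fold change of -3.39 ± 1.47 (SE), with an edgeR adjusted p of 0.95. That value rests on intact 2 and intact 4. The HBG2 model became a call when low-count models were kept (edgeR adjusted p 1e-17, log2 fold change -3.92), where the median over all gene models was -1.4. It also passed with contra 4 as the only contra sample (1.68e-05, -2.02).

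**Figure D5:**
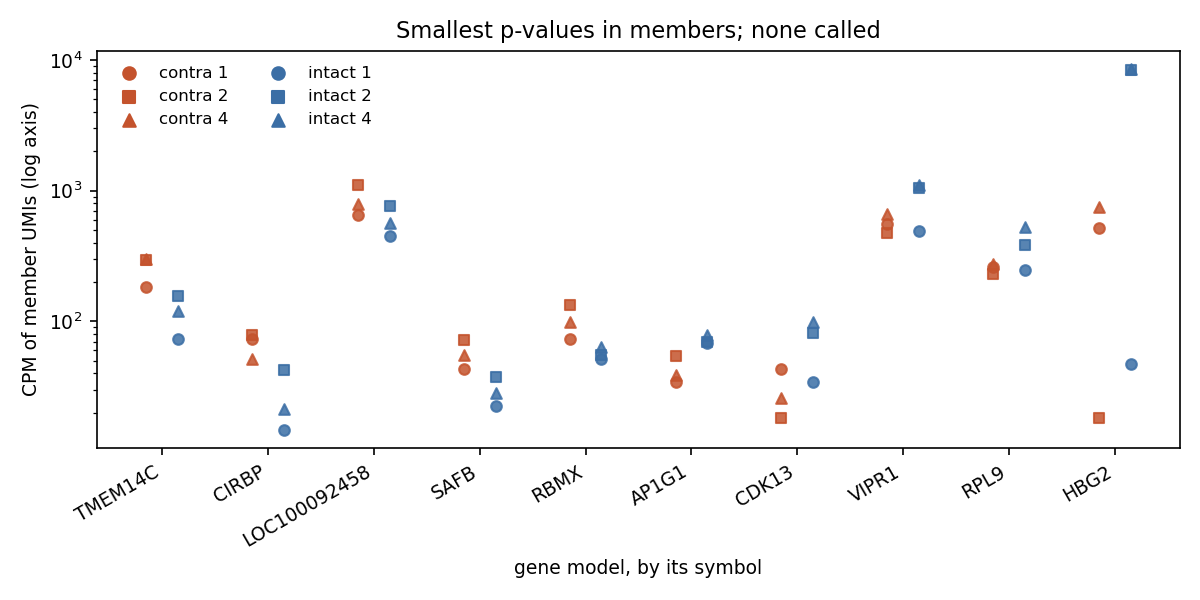
CPM of summed UMIs (log axis) of the selected cells in each sample for the 10 gene models with a symbol and the smallest p-values, 5 in each direction; contra is orange and on the left of each gene, intact is blue and on the right, and marker shapes are replicate numbers. TMEM14C, CIRBP, SAFB, RBMX and AP1G1 do not overlap between groups, none of the 10 passed adjustment, and the HBG2 model spans 18.1 to 8567 CPM.

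The erythroid lists showed no called gene in either direction. Of 9 haem synthesis models tested in the selected cells, 7 had a positive log2 fold change, with a median of 0.27. All 5 oxidant defence models were positive, with a median of 0.17, and 24 of 110 ribosomal protein models were positive, with a median of -0.10. Over all 453 models the median was -0.0016. ALAS2 had a log2 fold change of 0.08 ± 0.208 (SE), SLC4A1 0.25 ± 0.185 and the main TFR2 model -0.10 ± 0.177, with edgeR adjusted p-values of 0.99, 0.95 and 0.96. HBD, HBG1, the main HBZ and HBG2 models and the HB-AM pair had log2 fold changes of -0.03 to 0.20. None of the 24 S-phase symbols had a model that passed the low-count filter.

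Haemoglobin-rich cells with 2000 or more gene models and 2 or more MKI67 and TOP2A UMIs, which the proliferation limit removed, numbered 1, 1, 0 and 0 in contra samples and 6, 4 and 3 in intact samples. They made up 1.72%, 1.37%, 0% and 0% of haemoglobin-rich cells in contra, against 3.68%, 2.21% and 4.11% in intact samples. The counts of 0 allow up to 3.95% in contra 4 and 3.53% in contra 5. The groups did not overlap, with a difference of -2.56 points, which is a description since the limits of the rule define these cells. With all 19 haemoglobin models the mean of the contra group was 14.7% ± 7.57 (SD, n = 4) and that of the intact group 10.9% ± 3.25 (SD, n = 3), so the direction turned (difference 3.72 points).

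The 3235 cells chosen with all 19 haemoglobin models gave a deeper view of the same contrast, with 678, 350, 248 and 168 cells in contra 1, 2, 4 and 5 and 515, 1068 and 208 cells in intact 1, 2 and 4. They include the 100 selected cells. edgeR called 0 of 12631 gene models at an adjusted p of 0.05 (0%), with 531 at an unadjusted p under 0.05 (4.2%), and DESeq2 called 9 of 16002 (0.0562%), 1 higher and 8 lower in contra. The smallest edgeR p belonged to AMEX60DD301040542.1, which has no symbol in the files and was 1 of the leading models of cluster 2. It had 12.6, 4.81, 2.74 and 3.45 CPM in contra samples, against 85.3, 70.4 and 52.3 CPM in intact samples. Each intact sample stood more than 4 times above each contra sample, with a log2 fold change of -3.54 ± 0.477 (SE) and an edgeR adjusted p of 0.147. In the selected cells alone it had 0, 0 and 0 UMIs in contra samples and 2, 111 and 0 UMIs in intact samples. In the 3235 cells it was called by DESeq2 (adjusted p 0.00877) and by edgeR without contra 1 (5.33e-05). edgeR also called it with the replicate number as a block (adjusted p 0.00263) and without leukocyte and thrombocyte marker cells (2.86e-05). It was not called by edgeR with haemoglobin models left out, nor without contra 2, contra 4, contra 5, intact 1, intact 2 or intact 4.

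LOC115659439, another of the leading models of cluster 2, separated the same samples. It had 77.9, 46.1, 23.9 and 38.2 CPM in the contra samples of the 3235 cells, against 413, 227 and 109 CPM in the intact samples. The log2 fold change was -2.59 ± 0.498 (SE), with an edgeR adjusted p of 0.64 (0.0233 without contra 1, 0.00172 with the replicate number as a block). No other setting run on the 3235 cells called it. In the selected cells alone its main model had 21.5, 12.1 and 4.29 CPM in contra samples, against 6.25, 177 and 7.09 CPM in intact samples, so the groups overlapped there and intact 2 carried the difference.

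Leaving out contra 1 changed the outcome for the 3235 cells, with 59 gene models called instead of 0, 29 higher and 30 lower in contra. Contra 1 also stood apart in epidermal markers, which summed to 41.5, 321, 188 and 315 CPM in contra 1, 2, 4 and 5, against 58.3, 48.6 and 144 CPM in intact 1, 2 and 4. Fibroblast markers summed to 4.94, 187, 10.1 and 119 CPM in contra 1, 2, 4 and 5, against 1.78, 6.19 and 10.2 CPM in intact samples. The epidermal marker KRT12 was itself among the 59 calls, with a log2 fold change of 1.53. The part of these markers in the 59 calls was not tested. The S-phase list summed to 167, 372, 443 and 645 CPM in contra samples, against 243, 181 and 314 CPM in intact samples, where contra 1 was lowest of all. Its 24 models all had positive log2 fold changes with a median of 0.45, beside -0.0025 over all models, and 0 were called. Interferon response models were positive in 0 of 10 cases with a median of -0.46 and 0 were called with all samples, while their sums overlapped, at 179, 114, 135 and 159 CPM in contra samples and 202, 299 and 160 CPM in intact samples. Without contra 1, IRF1, an interferon regulatory factor, was 1 of the 30 models called lower, at -1.69 (edgeR adjusted p 0.0414).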

How the data were processed

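Limb cells of 7 samples (4 contra, 3 intact) were analysed from 1 deposited matrix, whose whole-number entries are UMI counts that the authors left unnormalized. Per the submitters' processing notes, kallisto 0.48.0 and Seurat 4.2.0 were used. What each did is not stated there, and for genome build and annotation the answer is likewise: not given in the sources used here. Every deposited cell has at least 3003 UMIs, 1000 detected gene models and at most 20% mitochondrial UMIs. Of 61014 gene models, 31456 have a symbol in the files, and no sequence or position was used. Cells poorer than these limits are not analysed here.

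Samples were taken from cell names. Doublets were scored per sample with Scrublet (scanpy 1.11.5, expected rate 5%) and no cell was removed. Counts of selected cells were summed per sample and tested with edgeR 4.0.16 (quasi-likelihood, TMM, filterByExpr, Benjamini-Hochberg at 0.05, R 4.3.3), two-sided, and DESeq2 1.42.0 was an alternative. The fit assumed 7 samples, and contra 5 dropped out with 0 cells. Shares and medians were compared by exact two-sided permutation tests of the difference in means, adjusted over 7 measures. Clusters came from Leiden (leidenalg 0.10.2) on the selected cells without haemoglobin models. Intervals are exact binomial at 95%, a count of 0 allows 3 counts, and both cover counting error only. Other cells of the comparison had under 2000 gene models with the same 2 limits, and all 19 haemoglobin models were left out of non-haemoglobin CPM (pseudocount 10, minimum 50). The scripts were tested on simulated data.

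The cells and gene lists were chosen with earlier results of these data known. Named genes were the 5 symbols with the smallest p per direction between groups (none was called), the 15 highest and 10 lowest ratios with the same sign in every sample, leading symbols by level, and the listed erythroid genes. AMEX60DD301040542.1, LOC115659439, HBA1 and the other HBG2 models were named after their values were seen. The set with 19 haemoglobin models was added after seeing the data.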

Additional observations from a re-analysis of the deposited data

Results flagged for a closer look

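In the 3235 cells chosen with all 19 haemoglobin models, contra 1 lay far below the other contra samples for 2 abundant haemoglobin models. The main HBZ model, AMEX60DD301021534.13, had 15560 CPM in contra 1, against 33250, 35840 and 36870 CPM in contra 2, 4 and 5. The main HBG2 model, AMEX60DD201028125.2, had 11820 CPM in contra 1, against 27450, 28880 and 28390 CPM in contra 2, 4 and 5. Intact 1 was also low for this HBG2 model, at 14450 CPM, against 37640 and 32520 CPM in intact 2 and 4. For the HBZ model intact 1, 2 and 4 had 31000, 37680 and 41900 CPM. In each case the gap to the nearest contra sample took up more of the contra range than Dixon's limit for 4 samples. It took 0.8301 of that range for HBZ, narrowly above the limit, and 0.9162 for HBG2. There were 42 such checks, and chance flags about 1 in 20 groups. In the 5 selected cells of contra 1, HBZ took 6.61% and HBG2 7.03% of UMIs, against 7.07% and 5.71% in contra 2 and 7.22% and 5.29% in contra 4. In the 673 contra 1 cells that pass only with the HB-AM pair, they took 1.57% and 1.14%. The rule counts HBZ and HBG2 but not the HB-AM pair, so it admits cells rich in them. The shares in the 5 cells are therefore a description.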

How the results depend on the processing

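The count of called genes in the selected cells was 0 in the main test and with each sample left out in turn, 4 with no filter on low counts and 9 with leukocyte and thrombocyte marker cells left out (contra 4 is then the only contra sample), and 0 under the other alternatives run. In the 3235 cells it was 0 in the main test, 9 with DESeq2, 2 with marker cells left out, and 0 to 59 when 1 sample was left out (59 without contra 1, 1 without intact 1). Deviations of same-numbered samples from their group means had correlations of -0.53, -0.38 and -0.08 in the selected cells. With so few samples and cells, these values cannot decide whether the replicate numbers pair the samples. With the replicate number as a block the count was 0 in the selected cells and 3 in the 3235. A 60% haemoglobin limit left 0 cells and gave no value.

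The median log2 fold change over all gene models was -0.50 with DESeq2 and -1.4 with no filter. For the share of haemoglobin-rich cells above the proliferation limit, leaving out 1 sample gave -3.12 to -2.17 points, the replicate block -2.30, 1500 gene models -0.976, 2500 gene models -1.35, thinning to 5000 UMIs -0.879 and 19 haemoglobin models 3.72. Median UMIs gave -5836 to 3597 with 1 sample left out. Median gene models gave -24.2 to 48.8 with 1 sample left out, -77.0 at 1500, -157 at 2500, -42.3 thinned and -15.1 with 19 models. The mitochondrial share gave -0.226 to 0.213 with 1 sample left out, 0.429 without marker cells, 0.373 at 1500, 0.216 at 2500, 0.262 thinned and 0.564 with 19 models. The shares of selected cells kept their direction, at -0.740 to -0.204 of all cells and -17.6 to -4.60 of haemoglobin-rich cells with 1 sample left out. Ratios to the other haemoglobin-rich cells turned when thinned to 3000 UMIs for SLBP (-2.18), RMI2 (-0.0012), IPO13 (-1.87) and TGM6 (-3.31), and for VEGFD (0.12) without marker cells. When thinned, the ratio of ATAD5 fell to 0 and that of CHAF1A to 0.54. The cause was not tested. Depth limits all values from contra samples, which rest on 4 to 6 cells each.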
